A study of Mus musculus with 8 samples.

Results

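The transcripts described here are those of 9 mouse genes of mitophagy, the removal of mitochondria by autophagy: Pink1, Bnip3, Bnip3l, Fundc1, Bcl2l13, Phb2, Sqstm1, Optn and Tax1bp1. They were found by symbol among the 55401 genes of each table, and all 9 were present and abundant enough to be tested. RNA-seq was performed on AML12 cells, a hepatocyte-derived mouse cell line, in 4 control dishes and in 4 dishes kept for 1 h under Opti-ELF-WMF. Opti-ELF-WMF is an extremely low frequency weak magnetic field given in 4 ms pulses at frequencies stepping from 1 to 8 Hz, with a peak of 100 mG. The paper's general methods state that control and exposed cells were taken from the same batch. Whether all replicates for RNA-seq shared that batch is not stated. The control dishes stood in a second incubator of the same model with the stimulator off. The effects of the field and of the incubator therefore cannot be told apart, and p-values measure only the spread between these dishes. The question was whether the mRNAs of the mitophagy pathway differed at 1 h, since mitophagy is the process the study followed in these cells.

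Mitophagy can start in several ways. In the ubiquitin route, the kinase PINK1 accumulates on damaged mitochondria and phosphorylates ubiquitin, after which the ubiquitin is extended into chains and adaptor proteins such as p62 (Sqstm1), optineurin (Optn) and TAX1BP1 link these chains to LC3 on the forming autophagosome. In the receptor route, proteins anchored in the outer membrane (BNIP3, NIX encoded by Bnip3l, FUNDC1 and BCL2L13) bind LC3 without ubiquitin, and prohibitin 2 (Phb2), in the inner membrane, binds LC3 once the outer membrane is broken. PINK1 is controlled largely through its import and degradation as a protein, whereas BNIP3 and NIX are well-known targets of hypoxia-inducible factors at the mRNA level, and p62 of NRF2.

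The values are TPM, relative transcript abundances, which divide reads by transcript length and scale each dish to the same total, so levels of different genes can be compared but the sequencing depth is unknown. Between 19386 and 20114 genes were above 0 TPM in each dish. Markers of hepatocytes were at or above 1 TPM in every dish for 8 of 8 genes, including Alb (46.1 to 58.2 TPM), although Apoa1 stood at only 3.12 to 5.29 TPM. Their summed level was 5417 to 5679 TPM in control and 5770 to 5980 TPM in exposed dishes. Krt8 (mean 2248 against 2361 TPM) and Krt18 (1905 against 2029 TPM) made up most of this sum. Means of Hnf4a, Trf and Serpina1a were also higher in exposed dishes. Those of Alb (55.1 against 49.7 TPM), Ttr (358 against 348 TPM) and Apoa1 (4.54 against 3.77 TPM) were lower. Most defining markers of other cells were at or near 0, with Adgre1 and Cdh5 listed at 0 in all 8 dishes and Ptprc at no more than 0.20 TPM. Exceptions were the macrophage marker Cd68, at 1.05 to 2.21 TPM in every dish, and the mesenchymal marker Vim, which was abundant (1304 to 1509 TPM). Of the other mesenchymal markers, Col1a1 was at 0.30 to 1.20 TPM, Col1a2 at no more than 0.41 TPM and Pdgfra at no more than 0.03 TPM. Transcripts of mitochondria-encoded genes took 8.94% ± 0.34 (SD, n = 4) of TPM in control and 7.04% ± 0.76 in exposed dishes, without overlap. This by arithmetic adds 2.09% to the TPM of every other gene on average. Nuclear copies of these genes, which the rescaling without mitochondrial genes also leaves out, are not part of this share. Of 12122 genes tested with limma, 0 had an adjusted p under 0.05 and 1894 an unadjusted p under 0.05, of which 76.6% were higher in exposed dishes. The smallest adjusted p of any gene was 0.0572.

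The 9 mRNAs spanned a wide range of abundance in control dishes. Phb2 was the most abundant at 386 ± 8.87 TPM (mean ± SD, n = 4), followed by Sqstm1 at 329 ± 8.84, Tax1bp1 at 137 ± 0.94, Bnip3l at 98.0 ± 6.72, Bcl2l13 at 60.2 ± 6.98, Fundc1 at 58.5 ± 2.13, Optn at 54.2 ± 2.02, Bnip3 at 37.3 ± 4.03 and Pink1 at 10.8 ± 0.73. Each step in this order was larger than the spread of the dishes except between Bcl2l13, Fundc1 and Optn, whose control dishes overlapped. Among all tested genes, Phb2 and Sqstm1 were more abundant than 97.1% and 96.6%, whereas Pink1 was more abundant than only 32.3%. NIX mRNA thus stood above BNIP3 mRNA, with a Bnip3 to Bnip3l ratio of 0.380 ± 0.021, and the kinase that starts the ubiquitin route was the least abundant of the 9.

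**Figure D1:**
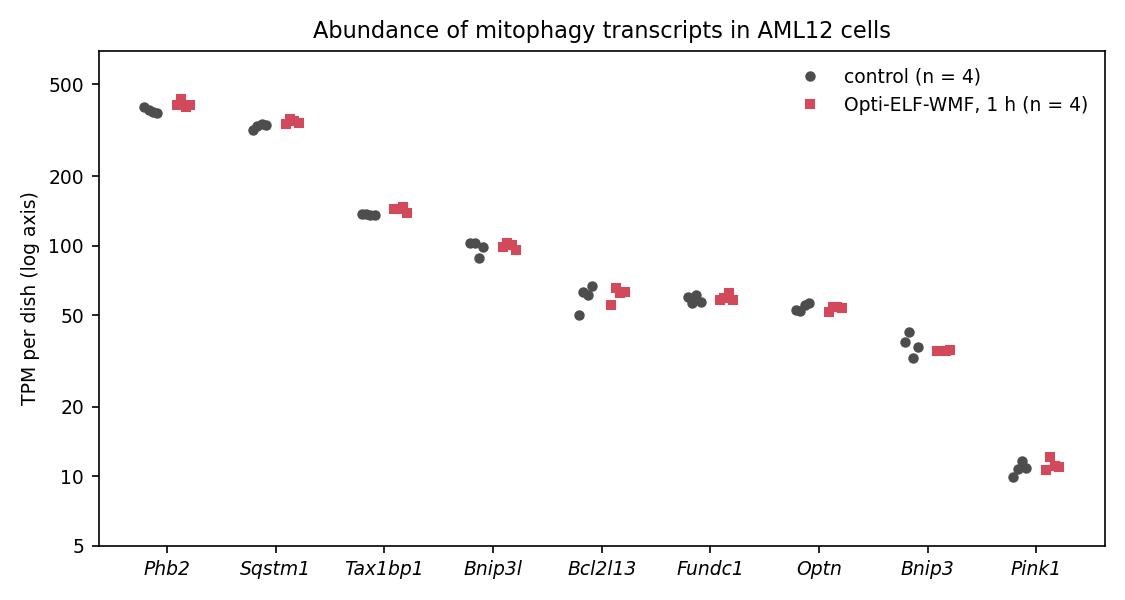
TPM of the 9 mitophagy genes in each of 4 control dishes (circles) and 4 dishes after 1 h of Opti-ELF-WMF (squares), on a log axis, with genes ordered by control mean. The genes spread from about 10.8 TPM for Pink1 to 386 TPM for Phb2, and the dishes of both conditions lie close together for each gene.

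No difference between conditions was detected for Pink1, the kinase. Pink1 (chr4:138313409-138326307, minus strand, mm10) stood at 9.88, 10.79, 11.67 and 10.90 TPM in control replicates 1 to 4 and at 10.68, 12.08, 11.13 and 10.99 TPM in Opti-ELF-WMF replicates 1 to 4. The 2 sets of dishes overlapped, the lowest dish being a control and the highest an exposed one. The log2 difference, Opti-ELF-WMF minus control, was 0.05 (SE 0.06; limma, adjusted p = 0.744), with a 95% interval that ran from -5.64% to 13.6%. Single dishes moved this value, which was 0.01 without control replicate 1 and 0.08 without control replicate 3. It was 0.02 when exposed dish 2 was left out.

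Regulators of the PINK1 pathway were examined as a list of 21 genes, all of them tested. Of these, 16 were higher and 5 lower in exposed dishes, beside 63.7% of all tested genes above 0. After rescaling without mitochondrial genes 8 were higher and 13 lower, beside 39.4% above 0. In deposited TPM none passed the adjusted test. At an unadjusted p under 0.05, 4 were higher and 1 lower, beside 12.0% and 3.65% of all tested genes. After the rescaling 2 of the 21 had such a p in either direction, beside 11.1%. Vcp, the ATPase that extracts ubiquitinated proteins from the outer membrane, had 198 ± 2.85 TPM in control and 214 ± 6.73 TPM in exposed dishes (log2 difference 0.11, limma adjusted p = 0.133). Fbxo7, an F-box protein that takes part in PINK1-dependent mitophagy, had 15.3 ± 1.02 and 13.5 ± 0.29 TPM (log2 difference -0.17, limma adjusted p = 0.176). Lonp1, a matrix protease, had 121 and 128 TPM (limma adjusted p = 0.227). Usp30, the deubiquitinase of the outer membrane that opposes mitophagy, ranged from 10.7 to 12.7 TPM over the 8 dishes, and Parl, the protease that cleaves PINK1 in the inner membrane, from 73.5 to 100.6 TPM.

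The adaptor mRNAs Sqstm1 and Tax1bp1 were higher in all exposed dishes than in any control dish, by narrow margins, and Optn was not. Sqstm1 (chr11:50199366-50210827, minus strand) encodes p62, which binds ubiquitin and LC3 and also drives NRF2 signaling. Its dishes stood at 316.01, 329.12, 336.24 and 332.73 TPM in the control and at 336.61, 353.92, 346.55 and 340.33 TPM under Opti-ELF-WMF, so that the lowest exposed dish lay 0.37 TPM above the highest control dish. The mean was 4.82% higher (329 ± 8.84 against 344 ± 7.58 TPM), with a log2 difference of 0.07 (SE 0.03) and an interval of 0.514% to 9.30% (limma, adjusted p = 0.261).

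Tax1bp1 (chr6:52713729-52766780, plus strand), whose product binds ubiquitin and ATG8 proteins, had the steadiest control level of the 9 genes relative to its mean. It stood at 137.66, 137.41, 135.64 and 136.37 TPM in control and at 143.57, 144.18, 146.73 and 138.79 TPM in exposed dishes. The 4 control dishes lay within a narrow band and Opti-ELF-WMF replicate 4 came within 1.13 TPM of it. The mean was 4.79% higher, with a log2 difference of 0.07 (SE 0.02), an interval of 0.857% to 8.76% and an adjusted p by limma of 0.226.

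Optn (chr2:5020642-5064051, minus strand) encodes optineurin, an adaptor that TBK1 phosphorylates. Its values were 52.80, 52.18, 55.30 and 56.44 TPM in control and 51.58, 54.23, 54.15 and 53.71 TPM in exposed dishes. The sets overlapped in part, with 1 exposed dish below all control dishes, and the log2 difference was -0.02 (SE 0.03; limma, adjusted p = 0.836), or -0.04 without control replicate 2 and -9.2e-05 without control replicate 4. Within each dish, which removes any common scaling, the ratio of Optn to Sqstm1 was 0.165 ± 0.00475 (0.159 to 0.170) in control and 0.155 ± 0.00229 (0.153 to 0.158) in exposed dishes, without overlap. The ratio of Sqstm1 to its fellow ubiquitin receptor Nbr1 was 4.41 ± 0.12 (4.30 to 4.55) and 4.70 ± 0.14 (4.56 to 4.90), also without overlap, whereas the ratio of Sqstm1 to Tax1bp1 was 2.40 in both conditions. These were among 9 ratios computed after the values had been seen, and they are given without a test. The 2 that did not overlap both hold Sqstm1, so they are not separate observations. Non-overlap was not computed for other gene pairs.

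Phb2 had the largest difference of the 9 genes toward higher levels. Phb2 (chr6:124712336-124716950, plus strand) stood at 397.26, 387.76, 380.86 and 377.05 TPM in control and at 408.26, 431.19, 397.29 and 408.50 TPM in exposed dishes. The groups did not overlap, but the lowest exposed dish and the highest control dish were only 0.03 TPM apart. The mean was 6.63% higher (386 ± 8.87 against 411 ± 14.2 TPM), with a log2 difference of 0.09 (SE 0.03), an interval of 1.80% to 11.6% and an adjusted p by limma of 0.187. Its partner Phb, with which it forms the prohibitin ring, ranged from 222 to 250 TPM with a log2 difference of 0.06, and the Phb2 to Phb ratio was 1.66 in control and 1.69 in exposed dishes, with overlap.

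The outer membrane receptors did not share a direction that held across scalings. Bnip3 (chr7:138890836-138909519, minus strand) stood at 38.17, 42.25, 32.55 and 36.30 TPM in control and at 34.93, 34.78, 35.04 and 35.33 TPM in exposed dishes. All 4 exposed dishes were below the control mean and lay within a coefficient of variation of 0.66%, against 10.8% in control, yet control replicate 3 was the lowest dish of all. The log2 difference was -0.08 (SE 0.07; limma, adjusted p = 0.594), with an interval from -14.8% to 4.56%. Without control replicate 3 the dishes no longer overlapped and the log2 difference was -0.15 (limma, unadjusted p under 0.05, adjusted p = 0.294), whereas without control replicate 2, the highest dish, it was -0.02 (limma, adjusted p = 0.900).

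Bnip3l (chr14:66985239-67008877, minus strand), which encodes the BNIP3 homolog NIX, stood at 102.71, 102.53, 88.38 and 98.29 TPM in control and at 98.40, 102.76, 100.79 and 95.79 TPM in exposed dishes. Control replicate 3 was again the lowest dish, and the log2 difference was 0.02 (SE 0.05; limma, adjusted p = 0.865), or -0.03 without that dish. The Bnip3 to Bnip3l ratio was 0.380 ± 0.021 (0.368 to 0.412) in control and 0.352 ± 0.013 (0.338 to 0.369) in exposed dishes, which overlapped. Near-identical pseudogene copies of both genes were at no more than 0.53 TPM.

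Fundc1 (chrX:17556564-17572325, minus strand), a receptor whose LC3 binding is set by phosphorylation, stood at 59.59, 56.39, 60.92 and 57.05 TPM in control and at 58.25, 59.56, 62.29 and 57.93 TPM in exposed dishes, with a log2 difference of 0.02 (SE 0.04; limma, adjusted p = 0.802) that ran from 0.0028 without Opti-ELF-WMF replicate 3 to 0.04 without control replicate 3. Bcl2l13 (chr6:120836212-120892842, plus strand), a BCL2-family receptor, was the least steady, at 50.27, 62.65, 61.16 and 66.56 TPM in control and 55.43, 65.45, 62.58 and 63.16 TPM in exposed dishes. Replicate 1 was the lowest dish in both conditions, and the log2 difference of 0.04 (SE 0.08; limma, adjusted p = 0.865) had an interval from -9.57% to 16.8% and was -0.04 without control replicate 1 and 0.09 without control replicate 4. Bcl2l13 shares 628 exonic bases with Bid on the opposite strand (114.7 to 127.7 TPM), and Sqstm1 shares 580 with Mrnip (3.36 to 4.37 TPM). The library kit keeps strand, but the strand setting of the counting is not given in the sources used here.

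**Figure D2:**
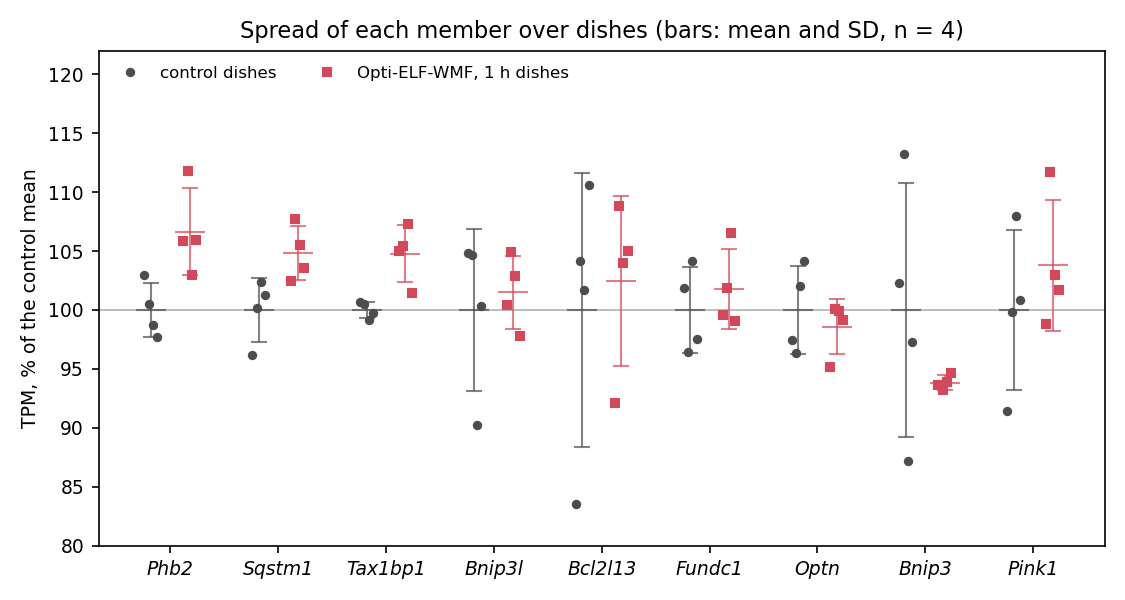
TPM of each gene in each dish as a percentage of its control mean, for 4 control dishes (circles) and 4 exposed dishes (squares), with bars for the mean and SD. Exposed dishes of Phb2, Sqstm1 and Tax1bp1 lie above the control dishes, and those of Bnip3 lie in a tight cluster below the control mean.

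Of the 9 genes, 7 were higher and 2 (Bnip3 and Optn) lower in exposed dishes, and 0 passed an adjusted p of 0.05, as for all genes tested (0.0% of 12122 genes). At an unadjusted p under 0.05, 3 genes were higher (Phb2, Sqstm1 and Tax1bp1), beside 12.0% of all tested genes. The same 3 genes had all exposed dishes above all control dishes, beside 8.01% of tested genes, and 0 had them all below, beside 1.86%. In either direction 9.87% of tested genes did not overlap. The median log2 difference of the 9 genes was 0.04, against 0.03 for all tested genes, of which 63.7% were above 0. The differences of Phb2 and Bnip3 exceeded those of 83.7% and 13.5% of tested genes, so both lay within the bulk of the transcriptome. The 95% intervals of all 9 genes stayed inside 20% either way, which bounds the size of the difference at 1 h in these dishes.

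The separation of the dishes was not kept under other scalings. With TPM rescaled after leaving out mitochondria-encoded genes and their nuclear copies, the log2 difference was 0.04 for Phb2 (limma, adjusted p = 0.547), 0.02 for Sqstm1 and 0.02 for Tax1bp1. Under this scaling 4 genes were higher and 5 lower, and the median of the 9 genes was -0.01, beside -0.02 for all tested genes. Under upper-quartile and median-of-ratios scaling, 5 were higher and 4 lower, since Bnip3l and Fundc1 changed sign. Under all 3 scalings 0 of the 9 genes kept non-overlapping dishes or an unadjusted p under 0.05. Among all tested genes, 11.5% had such a p under upper-quartile scaling, 11.8% under median-of-ratios scaling and 11.1% after rescaling. The share of all tested genes with non-overlapping dishes was not computed under these scalings, so the count of 0 has no background beside it. Bnip3 and Optn moved further from 0, to -0.13 and -0.07 after rescaling. Phb2, Sqstm1, Tax1bp1 and Pink1 remained above 0 and Bnip3 and Optn below 0 in each of these scalings.

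**Figure D3:**
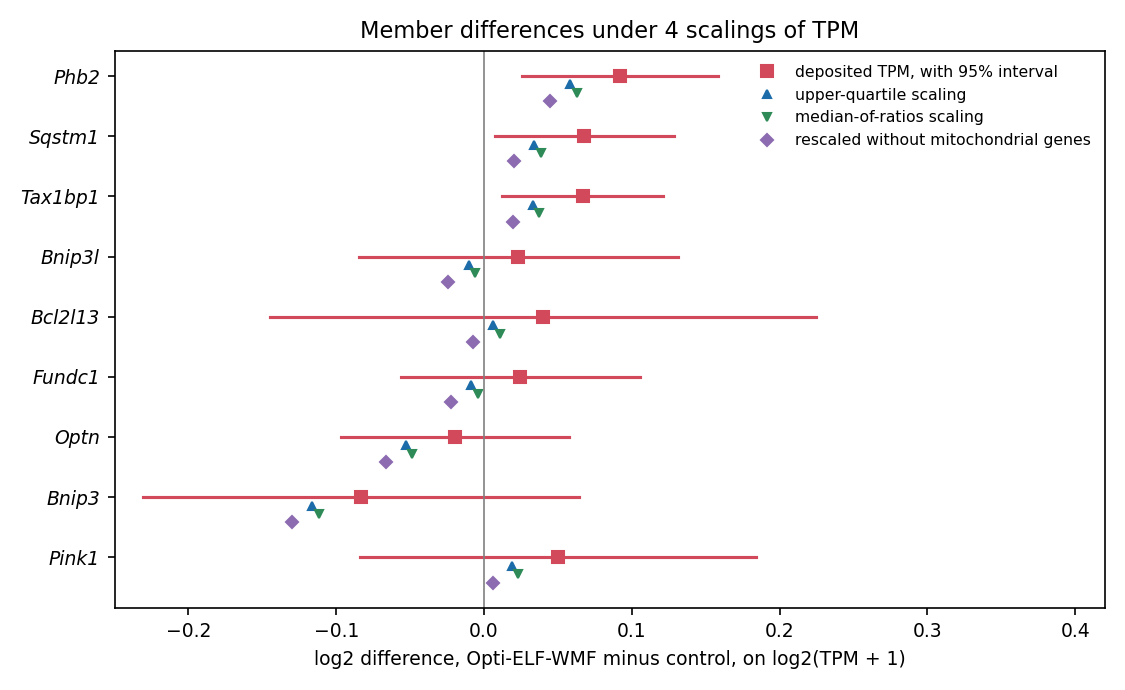
Log2 difference, Opti-ELF-WMF minus control, of each gene on log2(TPM + 1), with its 95% interval for deposited TPM (squares) and the point value under 3 other scalings (triangles and diamonds). All other scalings lie to the left of the deposited values, and Bnip3l and Fundc1 cross 0 under all 3, Bcl2l13 under rescaling without mitochondrial genes.

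The 250 bases before and 50 bases after the annotated start were read from RefSeq on GRCm38.p6 for 8 of the 9 genes, as 9 windows because Tax1bp1 has 2; Bnip3l has none in the table. The windows were searched on both strands for ACGTG, the core to which hypoxia-inducible factors bind, for CACGTG, an E-box that contains ACGTG on both strands, and for TGACNNNGC, the core of the antioxidant response element that NRF2 binds. Windows of Bnip3 and of the 3 genes with non-overlapping dishes are shown 5′ to 3′ along the gene, with matches in capitals. They are chr7:138909457-138909756 (minus strand) for Bnip3, chr6:124712039-124712338 (plus) for Phb2, chr6:52713915-52714214 (plus) for the downstream start of Tax1bp1 and chr11:50210771-50211070 (minus) for Sqstm1.
Bnip3: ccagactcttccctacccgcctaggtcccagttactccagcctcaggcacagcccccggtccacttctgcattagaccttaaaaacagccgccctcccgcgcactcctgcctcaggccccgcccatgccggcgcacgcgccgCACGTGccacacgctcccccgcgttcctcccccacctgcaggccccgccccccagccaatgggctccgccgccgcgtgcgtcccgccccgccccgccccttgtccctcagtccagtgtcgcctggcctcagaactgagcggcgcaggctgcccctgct
Phb2: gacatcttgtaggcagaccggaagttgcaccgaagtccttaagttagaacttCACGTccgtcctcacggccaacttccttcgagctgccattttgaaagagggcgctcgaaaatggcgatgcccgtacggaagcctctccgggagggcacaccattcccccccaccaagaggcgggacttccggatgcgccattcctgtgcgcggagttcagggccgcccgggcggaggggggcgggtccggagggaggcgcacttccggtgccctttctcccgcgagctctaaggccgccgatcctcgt
Tax1bp1: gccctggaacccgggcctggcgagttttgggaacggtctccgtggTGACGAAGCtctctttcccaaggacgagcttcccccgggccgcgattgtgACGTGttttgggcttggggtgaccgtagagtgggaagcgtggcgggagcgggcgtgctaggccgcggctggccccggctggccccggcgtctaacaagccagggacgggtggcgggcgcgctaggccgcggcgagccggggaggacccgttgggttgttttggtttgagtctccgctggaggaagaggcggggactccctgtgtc
Sqstm1: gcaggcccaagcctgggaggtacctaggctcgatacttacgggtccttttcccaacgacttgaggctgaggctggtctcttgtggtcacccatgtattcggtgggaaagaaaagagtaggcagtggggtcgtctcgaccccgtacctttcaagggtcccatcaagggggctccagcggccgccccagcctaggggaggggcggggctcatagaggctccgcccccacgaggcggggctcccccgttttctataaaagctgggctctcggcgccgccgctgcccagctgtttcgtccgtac
Bnip3, the gene with the lowest difference, holds the E-box, and Phb2 and Tax1bp1 hold an ACGTG core, which occurs in 19.6% of the 32851 windows of the genome. CACGTG occurs in 7.15% of windows. TGACNNNGC, found in 12.4% of windows, occurs in the downstream window of Tax1bp1 and in that of Bcl2l13 but not in this window of Sqstm1. The member windows had 12 to 31 CpG dinucleotides, against a median of 7 over all windows, which were not limited to tested genes. Of all windows, 60.4% had fewer than that of Fundc1 and 89.4% fewer than the downstream window of Tax1bp1, the 2 extremes. The 3 genes with non-overlapping dishes share no motif among those searched.

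Transcription factors known to act on these genes, and their targets, were examined as lists. Of 10 factors, 6 were higher and 4 lower (4 and 6 after rescaling without mitochondrial genes), beside 63.7% (39.4%) of all tested genes above 0. None passed the adjusted test, and 3 were higher at an unadjusted p under 0.05, beside 12.0% of all tested genes. After that rescaling 1 of the 10 had such a p in either direction, beside 11.1%. Trp53, which encodes p53, had 238 ± 1.20 TPM in control and 256 ± 6.83 TPM in exposed dishes (log2 difference 0.11, limma adjusted p = 0.122), Atf4, the factor of the integrated stress response, had 300 and 313 TPM (limma adjusted p = 0.217), and Hif1a had 33.6 and 35.7 TPM (limma adjusted p = 0.307). Of 11 targets of hypoxia-inducible factors, 9 were tested, and their direction was mixed, with 5 higher and 4 lower (3 and 6 after that rescaling). At an unadjusted p under 0.05, 2 were higher and 1 lower, beside 12.0% and 3.65% of all tested genes. After that rescaling 4 of the 9 had such a p, beside 11.1%. The glycolytic genes Pgk1 (845 against 909 TPM, limma adjusted p = 0.122) and Ldha (1079 against 1137 TPM, limma adjusted p = 0.175) had higher means and the growth factor Vegfa (14.7 against 12.9 TPM, limma adjusted p = 0.194) a lower one. All 7 tested NRF2 targets had higher means, beside 63.7% of tested genes, but 3 were higher and 4 lower after rescaling without mitochondrial genes. After that rescaling 0 of the 7 had an unadjusted p under 0.05, beside 11.1%. In deposited TPM 2 had such a p, beside 12.0%. These were Srxn1 (31.2 against 35.0 TPM, log2 difference 0.16, limma adjusted p = 0.202) and Osgin1 (116 against 123 TPM, limma adjusted p = 0.216), and Txnrd1 followed (141 against 145 TPM, limma adjusted p = 0.636). Nqo1, a classical NRF2 target, was at only 0.56 to 0.86 TPM and was not tested.

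The remaining lists of the pathway also held 0 genes with an adjusted p under 0.05. Of 14 further receptors and adaptors, 13 were tested. Of these, 9 were higher and 4 lower (7 and 6 after rescaling), beside 63.7% (39.4%) of all tested genes above 0. After rescaling 2 of the 13 had an unadjusted p under 0.05, beside 11.1%. In deposited TPM 1 was higher at that p, beside 12.0%. That gene was Tollip, an adaptor of vesicle traffic (43.1 ± 0.79 against 47.4 ± 1.54 TPM, log2 difference 0.13, limma adjusted p = 0.131). Next by p were Bcl2l1, an anti-apoptotic BCL2 relative (257 against 271 TPM, limma adjusted p = 0.323), and Atad3a, an inner membrane ATPase (41.7 against 44.4 TPM, limma adjusted p = 0.348). Calcoco2, which encodes the adaptor NDP52, was not tested at 0.20 to 0.58 TPM. Of 8 outer membrane proteins that are ubiquitinated in mitophagy, 6 were higher and 2 lower, and 4 were higher at an unadjusted p under 0.05, beside 63.7% above 0 and 12.0% higher at that p among all tested genes. These included the porin gene Vdac3 (201 ± 2.04 against 214 ± 4.13 TPM, log2 difference 0.09, limma adjusted p = 0.131) and Cisd1, an iron-sulfur protein (42.9 ± 3.35 against 49.96 ± 2.09 TPM, log2 difference 0.22, limma adjusted p = 0.139), as well as Vdac2 (356 against 375 TPM, limma adjusted p = 0.206). After rescaling without mitochondrial genes 6 were higher and 2 lower, beside 39.4% of all genes above 0. The list median was then 0.035, beside -0.018 for all genes. Of the 8, 1 had an unadjusted p under 0.05 after rescaling, beside 11.1% of all genes. The products of the 5 ATG8 genes are the LC3 and GABARAP proteins that the receptors bind. Of these genes 4 were higher and 1 lower (2 and 3 after rescaling), beside 63.7% (39.4%) of all tested genes above 0. In deposited TPM 0 had an unadjusted p under 0.05, beside 15.6%, and after rescaling also 0, beside 11.1%. Map1lc3b had 128 and 133 TPM, Gabarap 268 and 277 TPM, and Gabarapl2 85.5 and 82.4 TPM in control and exposed dishes.

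**Figure D4:**
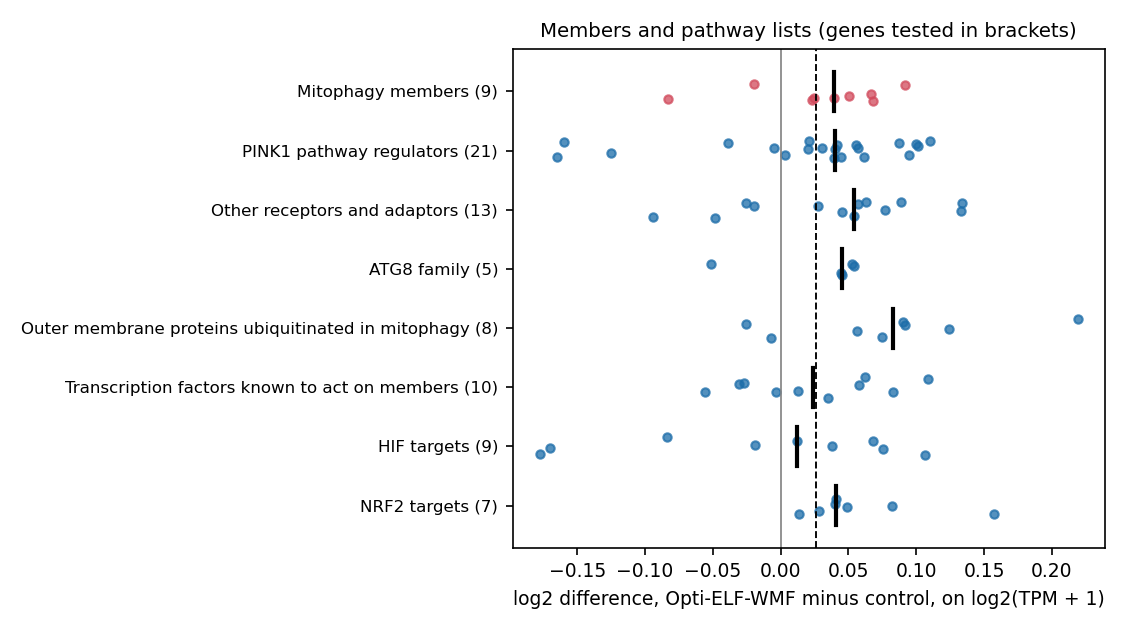
Log2 difference, Opti-ELF-WMF minus control, of each tested gene (points) in the 9 mitophagy genes and in 7 lists of the pathway, from deposited TPM, with thick bars for list medians, a solid line at 0 and a dashed line at the median of all 12122 tested genes (0.03). List medians run from 0.01 for targets of hypoxia-inducible factors to 0.08 for outer membrane proteins ubiquitinated in mitophagy, and under rescaling without mitochondrial genes 5 of the 7 lie below 0.

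The genes whose levels over the 8 dishes were most like those of 3 members were listed as a description. For Pink1 they were Pik3r3 (Pearson's r 0.987, Spearman's rho 0.952), Wars2 (0.972 and 0.976) and Gm6204 (0.967 and 0.929). For Bnip3 they were Nuak2 (0.963 and 1.0), Psmg4 (0.944 and 0.786) and Pim3 (0.925 and 0.929), and for Sqstm1 Mrpl20 (0.967 and 0.952), Supt6 (0.965 and 0.976) and Rfc5 (0.960 and 0.929). These had the highest r among 12121 genes compared over the same 8 dishes, which share 1 scaling. Without the 2 dishes farthest from the median r fell to 0.539 for Pim3 and 0.699 for Psmg4 but was 0.972 for Nuak2 and 0.944 for Pik3r3. More genes had an r above 0.9 with Sqstm1 (88) and Pink1 (40) than with Bnip3 (5). Such counts were not computed for other genes, so they are not read as a trait of these members.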

How the data were processed

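Total RNA of 8 dishes of AML12 cells, 4 control and 4 exposed, was made into stranded mRNA libraries and sequenced by the authors. Each dish has its own deposited table, which gives TPM for 55401 genes. The submitters' processing notes name Trimmomatic 0.39, STAR 2.7.4a, RSEM 1.3.3 and the build mm10, and the annotation release and the strand setting are not given in the sources used here. TPM keeps no depth, so no counting interval or floor could be given.

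The 12122 genes that reached 1 TPM in 4 or more dishes were compared on log2(TPM + 1) by limma 3.58.1 under R 4.3.3 (lmFit and trended eBayes), and p-values were adjusted over all of them by Benjamini-Hochberg. Log2 differences on this scale understate the change of low genes. Gene positions came from GENCODE M21, which matched 55141 identifiers, and copies of the members were found by BLAST. The pipeline was tested on simulated data. There, 0% of genes changed by a log2 of 0.1 were called at an adjusted p under 0.05, and 35.5% of those changed by 0.25. Changes of 0.1 or less can therefore be missed.

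Named are the 9 members, the 3 genes with the smallest p of each pathway list and the 3 genes most correlated with Pink1, Bnip3 and Sqstm1. Usp30, Parl, Phb, Nbr1, Calcoco2, Nqo1, the overlapping genes and the ratios were chosen after their values were seen. One further gene of the rule is not reported here. Members and lists were chosen with earlier results of these data known. Results were recomputed with other pseudocounts, filters and scalings, without the eBayes trend, with a replicate block, and leaving out each dish in turn.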

Additional observations from a re-analysis of the deposited data

How the results depend on the processing

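Differences of the 9 genes kept their sign in 38 of 45 values under the 5 alternatives that kept all dishes and can move them (2 pseudocounts and 3 scalings), and in 70 of 72 with a dish left out. All 7 reversals with all dishes kept arose under the 3 scalings. The pseudocounts moved the differences little: that of Pink1, the least abundant gene, was 0.050 in the main fit and 0.054 with a pseudocount of 0.1. The filters, the trend and the block cannot move a difference. Bnip3l was -0.010 under upper-quartile, -0.0059 under median-of-ratios and -0.024 under mitochondria-free scaling, Fundc1 was -0.0086, -0.0043 and -0.022, and Bcl2l13 was -0.0073 under the last. With a dish left out, Bcl2l13 ran from -0.043 (without control replicate 1) to 0.090 and Bnip3l from -0.025 (without control replicate 3) to 0.047. The number of the 9 genes with non-overlapping dishes was 0 under these 3 scalings and 3 to 4 with a dish left out. The share of all tested genes was not computed for these settings, and with fewer dishes non-overlap is easier to reach. Their median log2 difference was 0.0064, 0.011 and -0.0073 under the 3 scalings and 0.017 to 0.066 with a dish left out. Of the 9 genes, 0 passed an adjusted p of 0.05 under any alternative. The number of all genes with an adjusted p under 0.05 was 1 under the filter of 1 TPM in every dish, under each of the 3 scalings and without the trend, and 0 to 6 with a dish left out (6 without Opti-ELF-WMF replicate 2, 2 without control replicate 2, 1 without control replicate 3). Members with an unadjusted p under 0.05 numbered 1 without the trend, beside 1723 of 12122 tested genes. Without Opti-ELF-WMF replicate 3 there was 1, beside 1708 of 12055. The share of genes with an unadjusted p under 0.05 that were higher was 76.6% in deposited TPM, 42.3% under upper-quartile, 47.1% under median-of-ratios and 29.8% under mitochondria-free scaling. Dishes that share a number did not deviate together (correlations of -0.0419 to 0.0258), and with the number as a replicate block the same 3 genes had an unadjusted p under 0.05 (limma, p = 0.0124 for Phb2, 0.0276 for Sqstm1 and 0.0396 for Tax1bp1) and 0 an adjusted p under 0.05. The causes of these shifts were not tested. Depth is unknown, 1 time point was sampled, and mRNA levels do not measure the proteins.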
